A study of Mus musculus with 6 samples.

Results

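The genes described here encode the subunits of potassium channels. They were taken from the array by name, as every gene whose symbol in the scanner files starts with Kcn, further letters and a number. Kcnj13 and Kcne2, which mark the choroid plexus, were left out. By this rule 92 of 34788 genes on the array were members, with 139 of 55681 probes. The rule uses names only and no measured value. Of the members, 76 encode pore-forming subunits, 15 encode accessory subunits, and Kcnq1ot1 is a noncoding RNA that shares the name pattern only. Each gene was read from its brightest probe over the 6 arrays, and 38 members had more than 1 probe.

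Potassium channels let potassium ions leave the cell, which sets the resting potential of a neuron, ends each action potential and limits how fast the next can follow. Voltage-gated families (Kcna, Kcnb, Kcnc, Kcnd, Kcnq and Kcnh) open on depolarisation, calcium- and sodium-activated families (Kcnma, Kcnn and Kcnt) open on ion entry, inward rectifiers (Kcnj) hold the membrane near rest, and tandem-pore channels (Kcnk) leak at all voltages. Subunits of the Kcnf, Kcng, Kcns and Kcnv groups are electrically silent: they form channels only together with Kcnb subunits. Accessory subunits (Kcnab, Kcnip, Kcnmb and Kcne) change gating and trafficking, so that a neuron's firing depends on which of these genes it expresses.

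RNA came from the olfactory bulb, the hippocampus and the cerebral cortex of male BALB/c mice, an inbred strain, aged 8 weeks. The mice had received, through the nose and once only, either saline or polyamidoamine (PAMAM) dendrimers, branched polymers studied as carriers, at 0.15 mg/kg of body weight, and tissue was taken at 24 h. Each of the 6 groups (a region with a treatment) was read on 1 array, and the RNA of 6 independent experiments was pooled for it. Whether the regions came from the same mice is not given in the sources used here. Values are log2 of the background-corrected signal minus the 75th percentile of that array, called the log2 level below. With 1 array a group, their precision is limited by the number of arrays. Since probes differ in brightness, levels are compared between arrays for the same gene and not between genes.

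Between 34134 and 39057 of 59305 spots per array were well above background, and 0 were saturated. Over 399 probes spotted 10 times, spots of 1 array had a median SD of 0.09 (log2). Regions were checked with marker genes: all 17 markers of bulb neurons exceeded both other regions in the bulb (median log2 differences of 4.05 and 3.85), and 11 of 14 hippocampal neuron markers were higher in the hippocampus than in the cortex (median 2.21). Of 14 cortical neuron markers, 5 were higher in the cortex than in the hippocampus, 6 were higher there than in the bulb, and 1 was higher in the bulb. Tissue from neighbouring regions differed as well. Striatal markers were lower in the hippocampus than in the cortex in 9 of 9 (median -3.14) and lower in the bulb than in the cortex in 8 of 9 (median -3.40). Choroid plexus markers were higher in the hippocampus than in the cortex in 10 of 12 (median 3.67).

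Promoters of 67 members, with 91 start sites, were held in the RefSeq table used (GRCm38.p6). In the 250 bases before each start, median GC content was 58.8% for the members and 52.4% for all 32841 start sites. Motifs were searched as letters on both strands. The GC box GGGCGG was found before 45.1% of member starts and 32.7% of all starts, the TATA box TATAAA before 2.2% and 12.4%, and the E-box CAGCTG before 23.1% and 13.0%. A set of 4 windows of 250 bases is shown for members with the largest difference between bulb and hippocampus in each direction among those with a single listed start, so that both directions can be read side by side. Kcnk15 (chr2:163853500-163853749, plus strand) and Kcnn4 (chr7:24370013-24370262, plus strand) were higher in the bulb. Kcns1 (chr2:164171114-164171363, minus strand) and Kcnc4 (chr3:107458899-107459148, minus strand) were lower. Each is written 5′ to 3′ on the strand of the gene. Capitals mark a GC box or its reverse complement in all 4, the E-box CACGTG in Kcnn4, the E-box CAGCTG in Kcns1 and the cAMP response half-site TGACG in Kcnc4.
Kcnk15: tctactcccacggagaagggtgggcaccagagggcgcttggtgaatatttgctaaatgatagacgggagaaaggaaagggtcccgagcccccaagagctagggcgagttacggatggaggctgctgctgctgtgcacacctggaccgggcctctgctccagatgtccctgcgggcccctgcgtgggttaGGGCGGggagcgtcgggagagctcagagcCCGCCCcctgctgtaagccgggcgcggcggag
Kcnn4: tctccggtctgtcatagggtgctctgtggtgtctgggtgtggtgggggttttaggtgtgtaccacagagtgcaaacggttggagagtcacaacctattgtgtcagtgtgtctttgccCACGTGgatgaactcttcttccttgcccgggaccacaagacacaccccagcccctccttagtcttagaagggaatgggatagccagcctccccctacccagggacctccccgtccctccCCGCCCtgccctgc
Kcns1: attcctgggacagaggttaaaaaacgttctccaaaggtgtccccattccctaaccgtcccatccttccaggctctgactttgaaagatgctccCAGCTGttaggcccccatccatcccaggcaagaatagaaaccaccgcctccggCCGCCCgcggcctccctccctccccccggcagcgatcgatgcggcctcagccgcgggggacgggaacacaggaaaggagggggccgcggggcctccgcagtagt
Kcnc4: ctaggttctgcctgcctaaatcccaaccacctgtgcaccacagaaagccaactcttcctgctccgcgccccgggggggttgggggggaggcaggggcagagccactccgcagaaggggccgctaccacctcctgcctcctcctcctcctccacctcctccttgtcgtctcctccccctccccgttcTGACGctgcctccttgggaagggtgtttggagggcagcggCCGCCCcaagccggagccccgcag
All 4 windows hold a GC box, the higher pair as well as the lower pair. Over the 8 starts (6 genes) of members higher in the bulb than in both other regions, 75% held a GC box. Over the 16 starts (11 genes) of members lower there, 37.5% did. Median GC content also differed between these sets, at 66.4% and 55.4%, and its part in the GC box shares was not tested. The motifs are matches of letters and do not show binding.

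The first comparison asked how the members differed between regions. A linear model (limma) with region and treatment was fitted to all 6 arrays over the 23730 genes well above background on both arrays of at least 1 region. A gene was called at an adjusted p under 0.05 (Benjamini-Hochberg over all 23730) and a difference of at least 2-fold. Of the 92 members 79 were tested. The olfactory bulb differed from the hippocampus in 28 of the 79, of which 12 were higher and 16 lower in the bulb, against 12.8% of all genes tested (6.17% higher and 6.62% lower). It differed from the cortex in 29, of which 8 were higher and 21 lower, against 13.0% of all genes (6.25% higher and 6.76% lower). The hippocampus and cortex differed in 5, all lower in the hippocampus, against 3.4% of all genes (1.88% higher and 1.53% lower). In shares of the members, these calls were 35.4%, 36.7% and 6.33%. Without the 2-fold limit, an adjusted p under 0.05 was reached by 52, 55 and 15 members, against 38.4%, 41.1% and 7.5% of genes, and an unadjusted p under 0.05 by 59, 57 and 37, against 49.9%, 52.4% and 25.4%. A gene enters the test through any region where it is bright, so one that is near background elsewhere had to differ. Among the 69 members well above background on all 6 arrays, 23, 24 and 6 were called, against 10.6%, 10.6% and 2.98% of such genes. At least 1 contrast was called for 37 members (46.8%), against 17.4% of all genes.

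The sizes of the differences were larger than usual too. The median absolute log2 difference of the 79 members was 0.75 between bulb and hippocampus, 0.73 for bulb against cortex and 0.33 for hippocampus against cortex. Over all genes it was 0.31, 0.33 and 0.16. Signed medians were 0.02, -0.23 and -0.17 for the members, beside -0.04, -0.05 and -0.03 over all genes. Calls went in both directions in the bulb contrasts, but only lower in the hippocampus against the cortex. In tissue RNA, fewer cells of a type and less RNA per cell cannot be told apart. Each region has 2 arrays of different treatment, so the error of this fit is the part of the region difference that changed with treatment, with 2 residual degrees of freedom, and p-values measure only the spread between these pools.

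**Figure D1:**
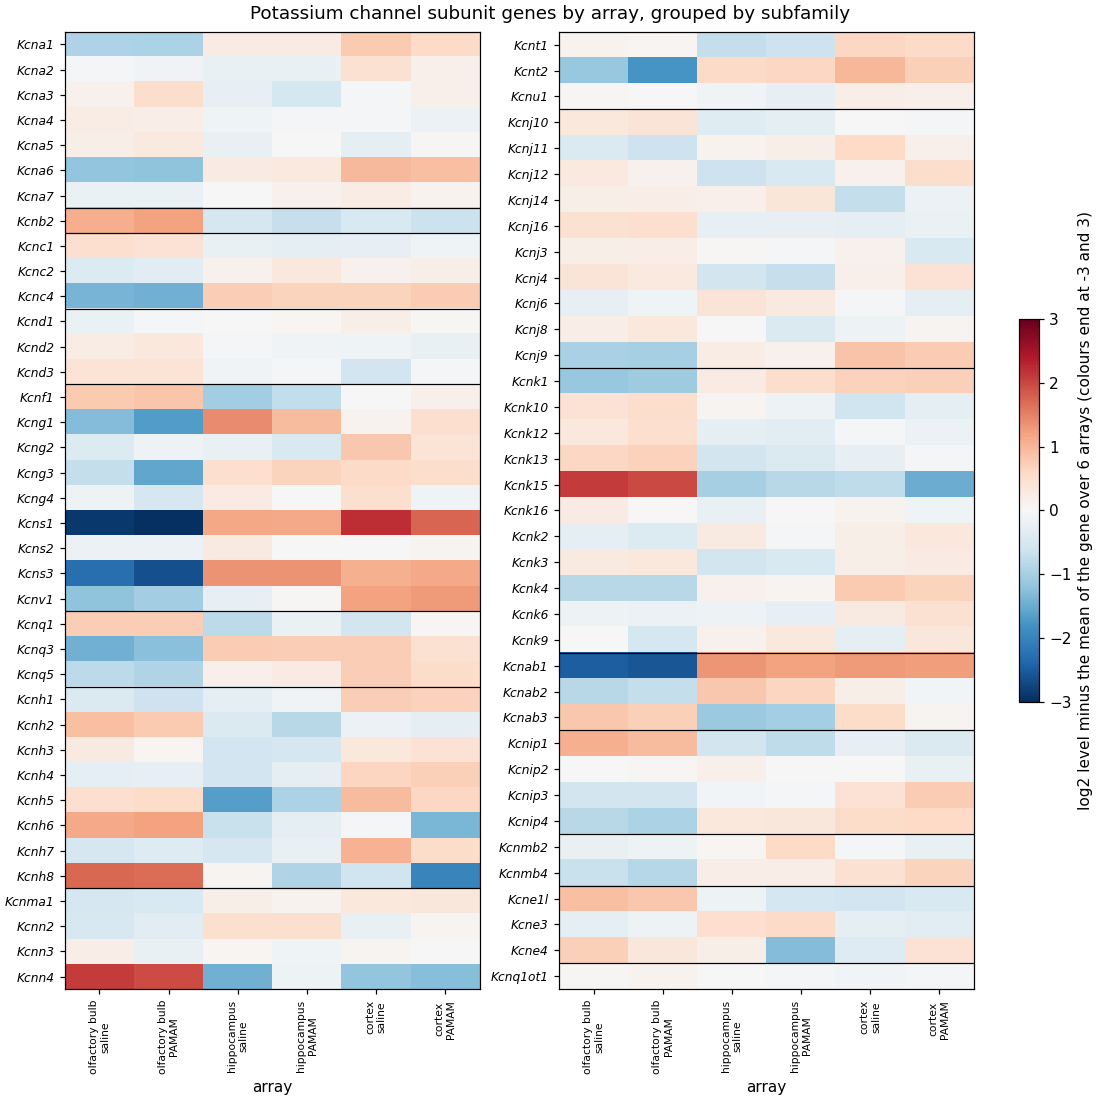
Log2 level of 75 of the 79 tested members on each of the 6 arrays (columns), after subtracting the mean of the gene over the arrays, grouped by subfamily (black lines); red is above and blue below that mean. Kcns1, Kcns3 and Kcnab1 are darkest blue in the olfactory bulb, Kcnn4 and Kcnk15 darkest red, and the Kcnd genes are pale throughout; values below background are drawn as measured.

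Members higher in the olfactory bulb than in both other regions were 7 of 79 (4.32% of all genes tested showed this): the tandem-pore subunit Kcnk15, the intermediate-conductance calcium-activated channel Kcnn4, the Kcnh family genes Kcnh8 and Kcnh2, the delayed rectifier Kcnb2, and the accessory subunits Kcnip1 and Kcne1l. Both contrasts share the 2 bulb arrays, so they are not independent. Where levels of called genes are said not to overlap, this comes from the arrays of the call and is no separate evidence. Of the 7, 5 were well above background on all 6 arrays. Kcnn4 and Kcnh8 entered the test through the bulb alone, where they are high, so their calls are no support and they are given as levels and bounds. Kcnk15 (probe at mm9 chr2:163684551-163684610) had log2 levels of -0.76 and -0.89 in the bulb (saline and PAMAM), -3.85 and -3.69 in hippocampus and -3.62 and -4.36 in cortex. Both bulb arrays lay above all 4 others, without overlap. The bulb was higher by 2.94 over the hippocampus (SE 0.24, n = 2 arrays a region, 7.70-fold, adjusted p = 0.00409) and by 3.16 over the cortex (8.95-fold, adjusted p = 0.00357). On its other probe, levels were 1.43 and 1.45 in the bulb, and the 4 arrays of the other regions were not well above background.

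Kcnn4, known from red blood cells and immune cells, had levels of -3.16 and -3.30 in the bulb (mm9 chr7:25169184-25169782). It was not well above background on the 4 other arrays. Measured against the lowest signal well above background there, it was at least 2.98-fold higher than in the hippocampus and at least 2.40-fold higher than in the cortex. Such bounds set the mean of the bright group against the higher, on each array, of the dim probe's own level and that lowest signal. It is a minimum over all probes and not a detection limit of the probe itself, so the bounds are approximate. It was -6.09 on the bulb PAMAM array and between -5.05 and -4.46 on the others. Bounds with a dim bulb PAMAM array are therefore larger. Red blood cell markers did not differ at the threshold between any regions in the 5 tested (medians 0.30 for bulb minus hippocampus and 0.20 for bulb minus cortex), and neither did the 8 microglia markers (-0.10 and -0.33). Which cells carry the Kcnn4 signal was not tested.

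Kcnb2, which carries delayed rectifier current and is a partner of the silent subunits, measured 1.0 and 1.12 in the bulb, -0.60 and -0.77 in hippocampus and -0.55 and -0.72 in cortex (mm9 chr1:15703259-15703318). The bulb arrays were the highest, 3.34-fold over the hippocampus (adjusted p = 0.00273) and 3.24-fold over the cortex (adjusted p = 0.00266).

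Kcnip1, a calcium-binding partner of Kcnd channels spotted 10 times on each array, measured 0.53 and 0.41 in the bulb, -1.08 and -1.3 in hippocampus and -0.77 and -0.95 in cortex. Both bulb arrays were the highest, with differences of 1.66 (adjusted p = 0.00177) and 1.33 (adjusted p = 0.00216). Kcnh2, which encodes an ERG channel, measured -0.08 and -0.21 in the bulb, -1.43 and -1.81 in hippocampus and -1.16 and -1.26 in cortex. Its bulb arrays were higher by 1.47 (adjusted p = 0.00332) and 1.06 (adjusted p = 0.00578). Without the bulb PAMAM array or the cortex saline array the Kcnh2 difference from the cortex (0.98 to 1.0) was no longer called.

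Kcnh8, an ELK channel, was near background outside the bulb. It measured -2.83 and -2.89 in the bulb and -4.46 in the saline array of the hippocampus, and was not well above background on the hippocampus PAMAM array or on either cortex array. It was at least 3.12-fold higher in the bulb than in the cortex, and in the saline arrays 1.64 (log2) higher than in the hippocampus. Kcne1l, of the single-span Kcne family, measured 0.76 and 0.68 in the bulb, -0.29 and -0.65 in hippocampus and -0.72 and -0.60 in cortex. Its differences were 1.19 (adjusted p = 0.00846) and 1.37 (adjusted p = 0.0061), and both calls were lost without either bulb array. Another Kcne1l probe, well above background on all 6 arrays, gave 0.54 and 0.61, under 2-fold.

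**Figure D2:**
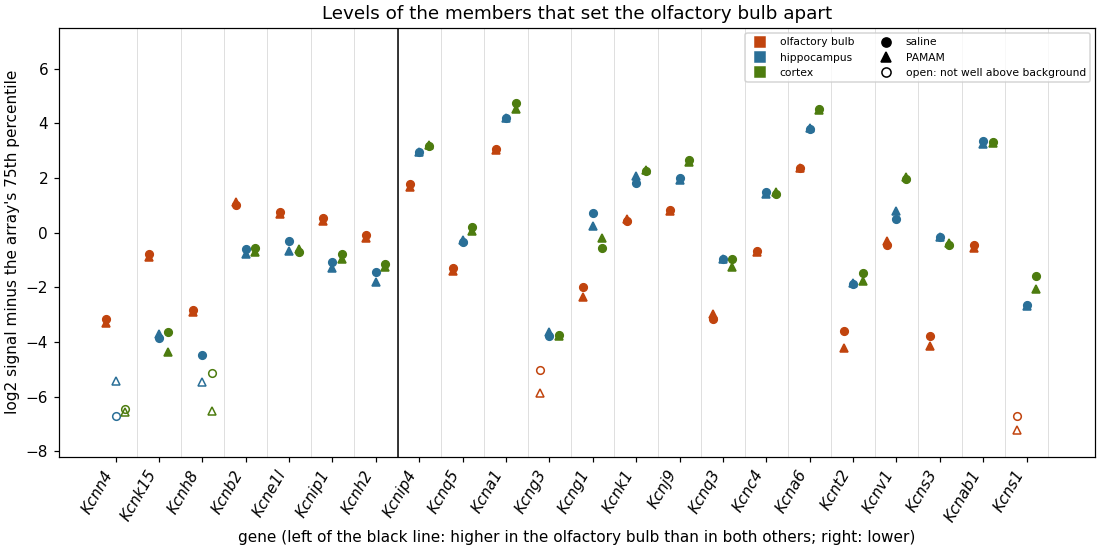
Log2 level (y axis) of the 7 members higher and the 15 members lower in the olfactory bulb than in both other regions (x axis); each point is 1 array, circles saline and triangles PAMAM, with open symbols for arrays where the probe was not well above background. For every gene shown, both bulb arrays lie on the same side of the 4 others, as in Kcnab1 (-0.45 and -0.54 against 3.23 to 3.36). The genes were chosen by calls on these same arrays, so this separation is no separate evidence.

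Members lower in the bulb than in both other regions were 15 of 79, against 4.54% of all genes tested, and 13 of these were well above background on all 6 arrays. The other members, Kcns1 and Kcng3, entered the test through the regions where they are high and are given as bounds. Of the 9 silent subunits tested, 5 were among them: Kcns1, Kcns3, Kcng1, Kcng3 and Kcnv1. Kcns1 (mm9 chr2:163990130-163990189) was not well above background on either bulb array and measured -2.66 and -2.67 in hippocampus and -1.59 and -2.06 in cortex. It was at least 7.05-fold lower in the bulb than in the hippocampus and at least 12.6-fold lower than in the cortex. Both bounds are raised by the bulb PAMAM array, whose lowest signal well above background was -6.09. Kcns3 (mm9 chr12:11097716-11097775) measured -3.77 and -4.15 in the bulb, -0.16 and -0.17 in hippocampus and -0.44 and -0.38 in cortex. The bulb was 13.8-fold below the hippocampus (adjusted p = 0.0015) and 11.7-fold below the cortex (adjusted p = 0.00149).

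Kcnv1 (mm9 chr15:44937912-44937971) was graded over the regions, with -0.45 and -0.29 in the bulb, 0.51 and 0.80 in hippocampus and 1.97 and 2.04 in cortex. No levels overlapped between regions, and Kcnv1 was the 1 member called higher in the cortex than in both others, against 0.784% of all genes. The bulb was lower than the cortex by 2.37 (SE 0.09, adjusted p = 0.00149) and lower than the hippocampus by 1.02 (adjusted p = 0.00461), the latter call being lost without the PAMAM array of the bulb or of the hippocampus (-1.01 and -0.93). Kcng1 measured -1.99 and -2.35 in the bulb, 0.73 and 0.25 in hippocampus and -0.58 and -0.17 in cortex. Its bulb arrays were lowest, by 2.67 (adjusted p = 0.00528) and 1.80 (adjusted p = 0.0117). The call against the cortex was lost without either bulb array (adjusted p from 0.0653 to 0.0847) and that against the hippocampus without the bulb PAMAM array (adjusted p = 0.0502).

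Kcng3 was not well above background in the bulb and measured -3.79 and -3.62 in hippocampus and -3.73 and -3.76 in cortex. It was at least 3.15-fold and at least 3.06-fold lower in the bulb than in these regions. As for Kcns1, the bulb PAMAM array raises these bounds. Kcnf1 went the other way. It measured 0.94 and 0.99 in the bulb, -0.89 and -0.57 in hippocampus and 0.18 and 0.30 in cortex, and was 3.24-fold higher in the bulb than in the hippocampus (adjusted p = 0.00247). The 9 silent subunits thus held 5 lower and 1 higher call against the hippocampus, beside 6.62% and 6.17% of all genes. Against the cortex they held 5 lower and 0 higher, beside 6.76% and 6.25%. These counts include Kcns1 and Kcng3, which entered the test through the regions where they are high, so their calls are no support. The 3 with no call in the bulb contrasts were Kcng2, Kcng4 and Kcns2. Another Kcng2 probe, well above background on all 6 arrays, differed by -3.17 between bulb and hippocampus, where the brightest differed by 0.05.

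Kcnab1, a cytoplasmic subunit that speeds inactivation of Kcna channels, was lower in the bulb by more than any other member measured on all 6 arrays. It had levels of -0.45 and -0.54 in the bulb, 3.36 and 3.23 in hippocampus and 3.30 and 3.29 in cortex (mm9 chr3:65181718-65181777). The hippocampus and cortex arrays overlapped, and both bulb arrays lay 13.9-fold below either region (adjusted p = 0.00117 in both contrasts). The other Kcnab genes differed from it in pattern. Kcnab2 measured -2.44 and -2.34 in the bulb, -0.81 and -0.96 in hippocampus and -1.44 and -1.69 in cortex, with the bulb lower by 1.5 than the hippocampus (adjusted p = 0.00373) and by 0.82 than the cortex (adjusted p = 0.0117, under 2-fold). Kcnab3 was lowest in the hippocampus, as described with that contrast.

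Of the 7 tested Kcna genes, which set spike threshold and axonal excitability, 2 were lower in the bulb than in both others, against 4.54% of all genes. Kcna1 measured 3.05 and 3.02 in the bulb, 4.21 and 4.21 in hippocampus and 4.75 and 4.54 in cortex, differences of -1.17 (adjusted p = 0.00379) and -1.61 (adjusted p = 0.00222). Kcna6 measured 2.37 and 2.35 in the bulb, 3.80 and 3.85 in hippocampus and 4.54 and 4.48 in cortex, differences of -1.46 (adjusted p = 0.002) and -2.15 (adjusted p = 0.00137). Another Kcna6 probe, well above background on all 6 arrays, gave -0.45 and -0.40, under 2-fold. On their brightest probes, levels of both genes did not overlap between regions and were in the same order, bulb, hippocampus, cortex. Kcna2, their usual partner in axons, was not called: it measured 0.77 and 0.74 in the bulb, 0.62 and 0.60 in hippocampus and 1.29 and 0.98 in cortex.

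Kcnc genes encode fast channels of rapidly firing neurons. Kcnc4 measured -0.67 and -0.70 in the bulb, 1.48 and 1.40 in hippocampus and 1.40 and 1.49 in cortex (mm9 chr3:107241564-107241623). The bulb was 4.35-fold below the hippocampus (adjusted p = 0.00156) and 4.38-fold below the cortex (adjusted p = 0.00149), while the other regions overlapped. Kcnc1 was highest in the bulb on its brightest probe (2.53 and 2.46, against 1.80 and 1.74 in hippocampus and 1.78 and 1.90 in cortex), by 0.73 and 0.66 (adjusted p = 0.00895 and 0.0108, under 2-fold). Kcnc2 was lower in the bulb by 0.59 and 0.52 (adjusted p = 0.0109 and 0.0133, under 2-fold).

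Kcnq genes form the M-channels, which open slowly below spike threshold and curb repetitive firing. Of these, Kcnq3 and Kcnq5 were lower in the bulb than in both other regions. Kcnq3 measured -3.15 and -2.98 in the bulb, -0.97 and -0.97 in hippocampus and -0.97 and -1.27 in cortex (mm9 chr15:65826897-65826956). The bulb was 4.27-fold (adjusted p = 0.00293) and 3.85-fold (adjusted p = 0.00312) lower, with no overlap. Kcnq5 measured -1.29 and -1.41 in the bulb, -0.35 and -0.27 in hippocampus and 0.22 and 0.05 in cortex, lower by 1.04 (adjusted p = 0.00508) and 1.48 (adjusted p = 0.00268). The first of these calls was lost without the PAMAM array of the bulb or of the hippocampus (-1.0 and -0.93). Another Kcnq5 probe gave -0.74, under 2-fold, and -1.65. Kcnq1, a subunit of heart and inner ear, measured -3.11 and -3.11 in the bulb and -4.63 and -4.04 in the hippocampus. The bulb was higher by 1.23 (adjusted p = 0.014), a call lost without the bulb saline array or either hippocampus array. Another Kcnq1 probe gave 0.93, under 2-fold.

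Among ion-activated channels, Kcnt2, a sodium-activated subunit, measured -3.60 and -4.23 in the bulb, -1.88 and -1.84 in hippocampus and -1.47 and -1.76 in cortex. Its bulb arrays were the lowest, by 2.06 (4.16-fold, adjusted p = 0.00462) and 2.30 (4.91-fold, adjusted p = 0.00377). Kcnma1, the large-conductance calcium-activated channel, was lower in the bulb by 0.63 and 0.81 (adjusted p = 0.00871 and 0.00498, under 2-fold), and 2 other probes gave -0.68 and -0.76, and -0.61 and -0.64. Its neuronal accessory subunit Kcnmb4 measured 3.04 and 2.86 in the bulb, 3.91 and 3.91 in hippocampus and 4.17 and 4.37 in cortex. Both bulb arrays were below all others, by 1.32 against the cortex (adjusted p = 0.00485, called) and 0.96 against the hippocampus (adjusted p = 0.00949, under 2-fold). Another Kcnmb4 probe gave -0.88 and -0.71, both under 2-fold. Small-conductance Kcnn2, with 10 spots, was highest in the hippocampus (2.71 and 2.70, against 1.74 and 1.89 in the bulb and 2.0 and 2.32 in the cortex) and not called. Kcnn3 measured between -2.23 and -1.81 on the 6 arrays, with overlap of all regions.

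Of 10 inward rectifiers (Kcnj) tested, 1 was called, against 17.4% of all genes in any contrast. Kcnj9, a subunit of the channels that G protein-coupled receptors open, measured 0.83 and 0.80 in the bulb, 2.02 and 1.94 in hippocampus and 2.67 and 2.57 in cortex. Regions did not overlap, with the bulb 2.25-fold below the hippocampus (adjusted p = 0.00268) and 3.51-fold below the cortex (adjusted p = 0.0015). Kcnj3 and Kcnj6, which assemble with it, showed no such step: Kcnj3 was higher in the bulb by 0.20 and 0.35 (adjusted p = 0.395 and 0.179), and Kcnj6 differed by -0.51 and -0.02 (adjusted p = 0.0338 and 0.898). Kcnj10, the main glial potassium channel, measured 6.02 and 6.09 in the bulb, 5.35 and 5.40 in hippocampus and 5.72 and 5.66 in cortex, higher in the bulb by 0.68 and 0.36 (adjusted p = 0.00791 and 0.0292). Its glial partner Kcnj16 was higher there by 0.73 and 0.72 (adjusted p = 0.00625 and 0.00618). Astrocyte markers went both ways: against the cortex, Gfap (1.14) and Aqp4 (1.17) were called higher in the bulb and Slc1a2 (-1.38) lower, of 9 tested, and against the hippocampus Slc1a2 (-1.3) was called lower. The strong rectifier Kcnj4 was lower in the hippocampus (3.85 and 3.69) than in the bulb (4.78 and 4.69) or cortex (4.55 and 4.82), by 0.96 and 0.92 (adjusted p = 0.0121 and 0.0427, under 2-fold). Kcnj8 and Kcnj11, the pores of channels closed by ATP, were not called.

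Of 11 tandem-pore genes tested, Kcnk15 and Kcnk13 were higher in the bulb than in the hippocampus (6.17% of all genes were), and Kcnk1 was lower (6.62%). Kcnk1 measured 0.43 and 0.50 in the bulb, 1.80 and 2.08 in hippocampus and 2.25 and 2.28 in cortex, differences of -1.48 (adjusted p = 0.00293) and -1.81 (adjusted p = 0.00205). Kcnk13 measured 0.38 and 0.45 in the bulb and -0.80 and -0.69 in the hippocampus, higher by 1.16 (adjusted p = 0.00292), and was 0.82 above the cortex (adjusted p = 0.00508, under 2-fold). Kcnk4, a mechanosensitive channel, measured -0.53 and -0.54 in the bulb, 0.42 and 0.38 in hippocampus and 1.08 and 0.95 in cortex, and was 2.94-fold lower in the bulb than in the cortex (adjusted p = 0.00179). Levels of Kcnk1 and Kcnk4 did not overlap between regions. The acid-sensitive Kcnk3 was lower in the hippocampus than in the bulb by 0.80 (adjusted p = 0.00469) and than in the cortex by 0.72 (adjusted p = 0.0253), both under 2-fold. Acid-sensitive Kcnk9 and mechanosensitive Kcnk2 were not called.

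Kcnd genes carry the A-type current of dendrites, and none of the 3 was called, against 17.4% of all genes in any contrast. Kcnd2 measured 3.63 and 3.72 in the bulb, 3.35 and 3.31 in hippocampus and 3.28 and 3.18 in cortex, and Kcnd3 measured 3.87 and 3.89, 3.36 and 3.40, and 2.90 and 3.41. Against the cortex the bulb was higher by 0.44 (adjusted p = 0.0237) and 0.73 (adjusted p = 0.0291), both under 2-fold. Their calcium-binding partners differed in direction. Against Kcnip1, which was higher in the bulb, Kcnip4 measured 1.78 and 1.66 in the bulb, 2.94 and 2.95 in hippocampus and 3.16 and 3.21 in cortex, differences of -1.23 (adjusted p = 0.0031) and -1.46 (adjusted p = 0.00222). Another Kcnip4 probe gave -1.40 and -1.41. Kcnip2 lay between -0.19 and 0.18 on all arrays. Kcnip3, which also acts as a transcriptional repressor, measured 3.77 and 3.77 in the bulb and 4.75 and 5.07 in the cortex and was lower by 1.15 (adjusted p = 0.0055), a call lost without the bulb PAMAM array (adjusted p = 0.0518). Another Kcnip3 probe gave 0.24, the opposite direction.

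The Kcnh family, whose members encode EAG, ERG and ELK channels, had calls in both directions. Against the hippocampus, 3 of 8 were higher in the bulb and 0 lower, against 6.17% and 6.62% of all genes. Against the cortex, 3 were higher (Kcnh2, Kcnh6 and Kcnh8) and 2 lower (Kcnh1 and Kcnh7), against 6.25% and 6.76%. Kcnh8, counted as higher in both contrasts, and Kcnh6 entered the test through the bulb alone, so their calls are no support. Without them, Kcnh2 is the only higher call against the cortex. Kcnh6 measured -3.61 and -3.54 in the bulb and was not well above background elsewhere, at least 1.89-fold higher than in the cortex and at least 2.35-fold higher than in the hippocampus. As said above, its call is no support. Kcnh1 measured -2.38 and -2.55 in the bulb, -2.23 and -2.04 in hippocampus and -1.20 and -1.24 in cortex, lower than the cortex by 1.24 (adjusted p = 0.005). Kcnh7 measured -2.53 and -2.42 in the bulb, -2.53 and -2.27 in hippocampus and -1.0 and -1.49 in cortex, lower than the cortex by 1.23 (adjusted p = 0.0188). That call was lost without either bulb array or the cortex saline array, and another probe of the gene, well above background on all 6 arrays, gave 0.24. Kcnh3 was not called in any contrast.

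Between hippocampus and cortex, 5 members were called, all lower in the hippocampus: Kcnh5, Kcnab3, Kcnv1, the sodium-activated Kcnt1, and Kcnh4. Kcnh5, an EAG channel, measured 0.96 and 1.03 in the bulb, -1.19 and -0.49 in hippocampus and 1.41 and 1.08 in cortex (mm9 chr12:75998266-75998325). Its hippocampus arrays were the lowest, by 2.09 against the cortex (SE 0.27, adjusted p = 0.0359) and 1.83 against the bulb (adjusted p = 0.0141). Kcnab3 had the same shape, with 2.71 and 2.60 in the bulb, 0.78 and 0.88 in hippocampus and 2.45 and 1.97 in cortex, lower in the hippocampus by 1.38 (adjusted p = 0.0313) and 1.83 (adjusted p = 0.00486). Kcnh5 and Kcnab3 were the 2 members lower in the hippocampus than in both others, against 0.48% of all genes. The count higher in the hippocampus than in both others was 0 of 79 (1.12% of genes), and that lower in the cortex than in both others was also 0 (0.56%). Kcnj13, which the rule left out, was called higher in the hippocampus than in both others. Kcne2, also left out, was called likewise, but it entered the test through the hippocampus alone, where it is high. Its call is therefore no support. At an unadjusted p under 0.05, 37 members differed between hippocampus and cortex in either direction. Kcnt1 was lower by 1.27 (1.11 and 1.21 against 2.46 and 2.40, adjusted p = 0.0179), Kcnv1 by 1.35 (adjusted p = 0.0182), and Kcnh4 by 1.09 (-0.35 and -0.05 against 0.87 and 0.93, adjusted p = 0.0236).

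With any 1 of the 6 arrays left out, which leaves 1 residual degree of freedom, 0 of the 5 calls between hippocampus and cortex held (adjusted p from 0.0711 to 0.152) and 0 of 23730 genes were called, while 29 to 40 members had an unadjusted p under 0.05. The differences kept their direction, from -1.34 to -1.19 for Kcnt1, from -1.44 to -1.26 for Kcnv1 and from -2.51 to -1.67 for Kcnh5. Leaving out an array of the bulb also lost the Kcnh5 call against the bulb (adjusted p 0.0887 and 0.0941), and leaving out the bulb PAMAM array that of Kcnab3 (adjusted p = 0.0501). The arrays lay in 2 rows of 1 slide, with the bulb in row 1, the cortex in row 2 and the hippocampus split (saline in row 1, PAMAM in row 2). With slide row in the fit, 25 members were called between bulb and hippocampus and 0 in each contrast with the cortex (38 and 30 at an unadjusted p under 0.05), also with 1 residual degree of freedom. Differences between bulb and cortex in that fit were -3.87 for Kcnab1, -2.24 for Kcnc4, -2.19 for Kcnv1 and 3.76 for Kcnk15, beside -3.79, -2.13, -2.37 and 3.16 without the row. Others became smaller: -1.81 for Kcnt2, 0.99 for Kcne1l and -0.78 for Kcnh7, beside -2.30, 1.37 and -1.23. Kcne1l and Kcnh7 thus fell under 2-fold, as did Kcnh1 (-0.96) and Kcnh2 (0.79). The bulb and the cortex share no row. Within row 1, the saline arrays of bulb and hippocampus differed at least 2-fold in 27 of 79 members, against 14.3% of all genes, a contrast free of the row. Within row 2, the PAMAM arrays of hippocampus and cortex did so in 9, against 6.46%.

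The saline and the PAMAM arrays share no RNA and give 2 separate readings of each region difference. In the saline arrays alone, 27, 34 and 12 of the 79 members differed at least 2-fold between bulb and hippocampus, bulb and cortex, and hippocampus and cortex, against 14.3%, 15.0% and 6.42% of genes. In the PAMAM arrays alone 31, 28 and 9 did, against 14.5%, 15.3% and 6.46%. Between bulb and hippocampus, 65 of 71 members measured on all 4 arrays had the same sign in both, and 21 of the 22 that were at least 2-fold apart in the saline arrays were so, in the same direction, in the PAMAM arrays. For the bulb against the cortex these counts were 63 of 69 and 22 of 27, and for the hippocampus against the cortex they were 49 of 71 and 4 of 12. The median gap between both readings was 0.17, 0.20 and 0.21 (log2), against 0.12, 0.16 and 0.16 over all genes. The widest gaps were those of Kcnk9 in both bulb contrasts (0.69 and 1.11) and of Kcnh5 between hippocampus and cortex (1.04).

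**Figure D3:**
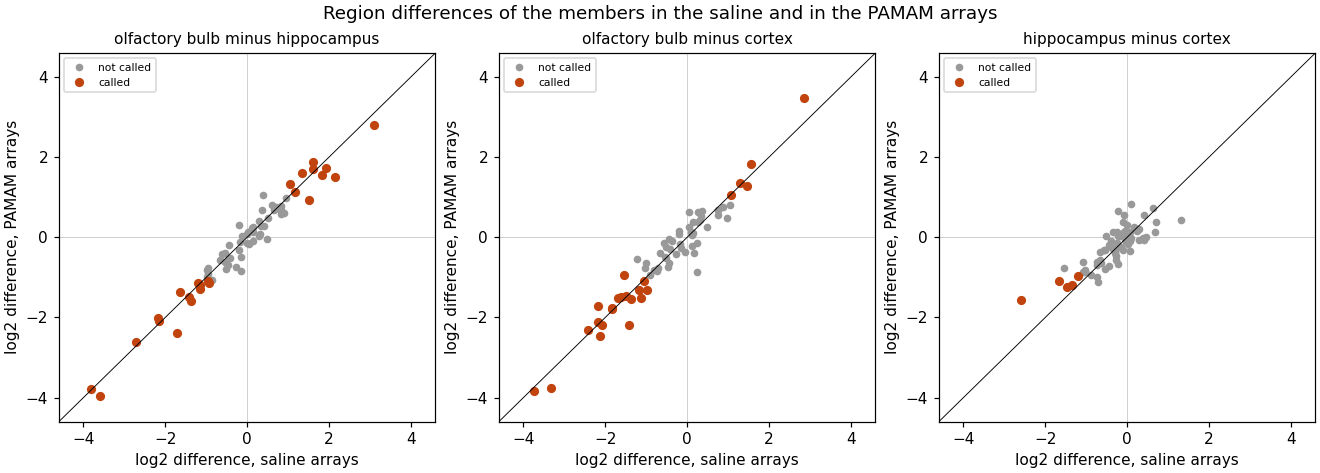
Region difference (log2) of each member measured on all 4 arrays of a contrast, in the saline arrays (x axis) and in the PAMAM arrays (y axis), with called members in orange and the line of equality. In the bulb contrasts points follow the line over the whole range, with 65 of 71 and 63 of 69 of the same sign; between hippocampus and cortex they gather near 0, with 49 of 71.

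Other probes of the same genes were read where they were well above background on all 4 arrays of a contrast. For 10 called genes these made 14 pairs of probe and contrast, of which 12 had the direction of the brightest probe and 5 were also at least 2-fold. The 2 exceptions were Kcnh7 and Kcnip3 against the cortex, where another probe gave 0.24 for each, against -1.23 and -1.15. Over called and uncalled members, 65 of 76 pairs had the same sign, and 11 differed by at least 2-fold, in 6 genes chosen after their values were seen. Kcna5 differed by 0.35 between bulb and hippocampus on its brightest probe and by 2.64 on the other. Kcng2 differed by -0.94 between hippocampus and cortex on its brightest probe and by 2.41 on the other, whose levels were -1.27 and -1.37 in hippocampus and -3.40 and -4.06 in cortex. Kcnc1 was higher in the bulb by 0.73 and 0.66 on its brightest probe and lower by 0.37 and 0.97 on another. Which transcript each probe reads was not tested.

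**Figure D4:**
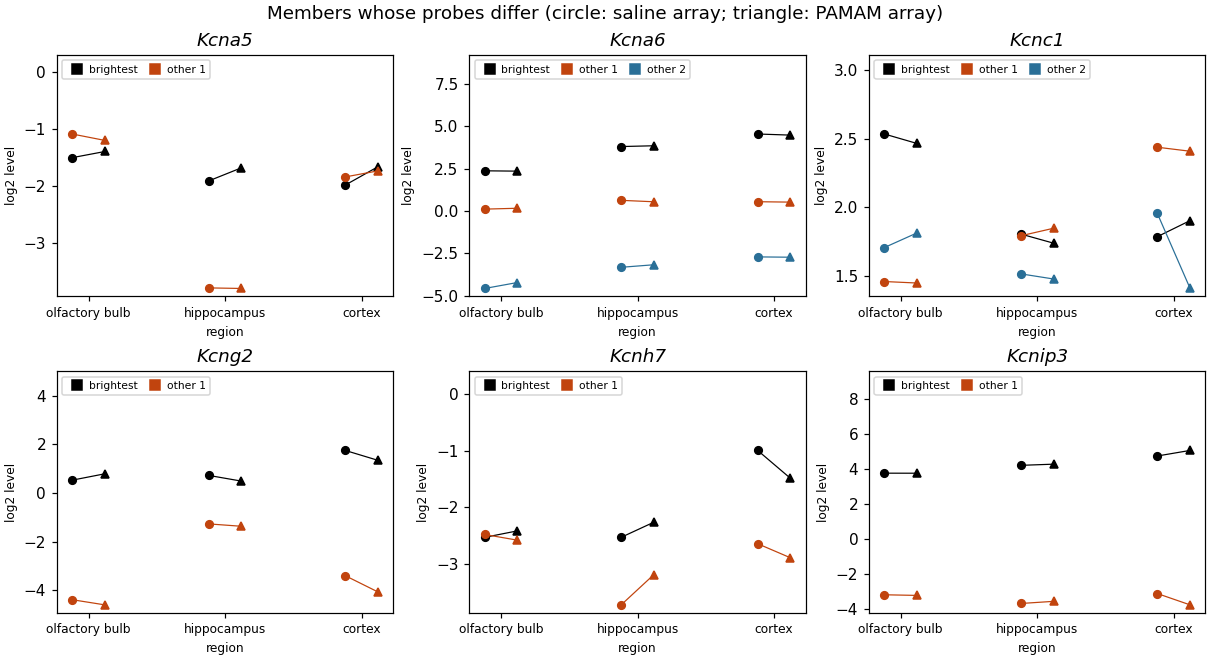
Log2 level by region of every probe of the 6 members with a gap of at least 2-fold between probes; black is the brightest probe, colours the others, circles saline and triangles PAMAM, with a y axis of its own for each gene. In Kcng2 and Kcnc1 the other probe (orange) orders the regions differently from the brightest.

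Proteins that assemble with or anchor these channels, and the related Hcn channels of the pacemaker current, were read as a separate list of 25 genes that are not members. Of 22 tested, 3 were higher and 3 lower in the bulb than in the hippocampus, against 6.17% and 6.62% of all genes. Against the cortex, 2 were higher and 4 lower in the bulb (6.25% and 6.76% of genes). In the hippocampus 2 were lower than in the cortex (1.53%). Lrrc55, an accessory subunit of the Kcnma1 channel, measured 2.09 and 2.19 in the bulb, -1.46 and -1.06 in hippocampus and -0.08 and -0.26 in cortex, higher in the bulb by 3.40 (adjusted p = 0.00188) and 2.30. Hcn3 was higher there by 1.57 and 1.41. Abcc8, the sulfonylurea receptor that joins Kcnj11, was lower in the bulb by 1.86 and 2.01, and Lgi1, a secreted protein that acts on Kcna channels, by 1.83 and 1.3. Dpp10, a partner of Kcnd channels, was higher in the bulb than in the hippocampus by 1.52 and lower in the hippocampus than in the cortex by 1.46, while its relative Dpp6 differed by -0.44 and -0.20 in the bulb contrasts and was not called.

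Cell type markers moved with the regions as well. Oligodendrocyte markers were lower in the bulb in 5 of 8 against either region (medians -1.10 and -1.40), with a summed level (in multiples of the 75th percentile) of 163 and 169 in the bulb, 233 and 257 in hippocampus and 291 and 275 in cortex. Meningeal markers were higher in the bulb in 6 of 10 and 10 of 10 (medians 1.23 and 1.66). Choroid plexus markers, of which Sostdc1 and Kcne2 were not well above background in the bulb, summed to 6.61 and 6.40 in the bulb, 173 and 280 in hippocampus and 5.24 and 24.5 in cortex. The part of these tissues in the members' region differences was not tested.

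Not tested were 13 members, none of them well above background on both arrays of a region. Of these, 8 were not well above background on any array: the small-conductance channel Kcnn1, Kcna10, Kcnj1, Kcnk7, Kcnk18, Kcnmb1, Kcnmb3 and Kcnv2. Kcne1, Kcnj2, Kcnj5, Kcnj15 and Kcnk5 were well above background on at least 1. Of the 79 tested, 69 were well above background on all 6 arrays. The noncoding Kcnq1ot1 was level, between 2.23 and 2.40.

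The next comparison asked how PAMAM changed the members within each region. With 1 array a group there is no replicate check and no test. None of the members measured on both arrays of a region differed 2-fold: 0 of 76 in the olfactory bulb, where 0.259% of all measured genes did, 0 of 74 in the hippocampus (0.653% of genes) and 0 of 71 in the cortex (0.768%). Differences, PAMAM minus saline, had medians of -0.00, 0.01 and -0.03 and ran from -0.62 to 0.41, from -0.48 to 0.71 and from -0.74 to 0.60. Median absolute differences were 0.08, 0.13 and 0.14, beside 0.09, 0.10 and 0.14 over all genes. These counts leave out Kcnj13 and Kcne2 by the rule. Kcnj13, well above background on all 6 arrays, was higher with PAMAM by 0.15 in bulb, 0.70 in hippocampus and 1.22 in cortex. Kcne2 was higher by 0.91 in the hippocampus.

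At 1.5-fold, 1, 1 and 3 members differed, where 1.85%, 3.08% and 4.57% of genes did. In the bulb this was Kcnt2, lower with PAMAM (-4.23 against -3.60), by 0.62. In the hippocampus it was Kcnh5, higher with PAMAM (-0.49 against -1.19), by 0.71. In the cortex Kcnk15 was lower by 0.74 (-4.36 against -3.62), the silent subunit Kcng4 was lower by 0.62 (-4.12 against -3.50) and Kcnk9 was higher by 0.60 (-3.41 against -4.01). All but Kcnh5 lay between -4.36 and -3.41 on these arrays, and another background correction (normexp) gave -0.37 for Kcnt2, -0.08 for Kcnk15, -0.11 for Kcng4 and 0.29 for Kcnk9, and 0.64 for Kcnh5. Other large differences were those of Kcnk9 (-0.51), Kcnn3 (-0.42) and Kcna3 (0.41) in the bulb, of Kcnq1 (0.58), Kcnmb2 (0.53) and Kcng1 (-0.48) in the hippocampus, and of Kcnj3 (-0.57), Kcnd3 (0.50), Kcnh7 (-0.49) and Kcnab3 (-0.48) in the cortex. The rest of the 8 largest differences per region were those of Kcne4 (-0.38), Kcns3 (-0.38), Kcng1 (-0.36) and Kcng4 (-0.35) in the bulb, of Kcnh2 (-0.38), Kcne1l (-0.36), Kcnf1 (0.32) and Kcnh4 (0.30) in the hippocampus, and of Kcns1 (-0.47) in the cortex. The median over all probes gave -0.15 for Kcnd3 in the cortex and -0.01 for Kcnn3 in the bulb.

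**Figure D5:**
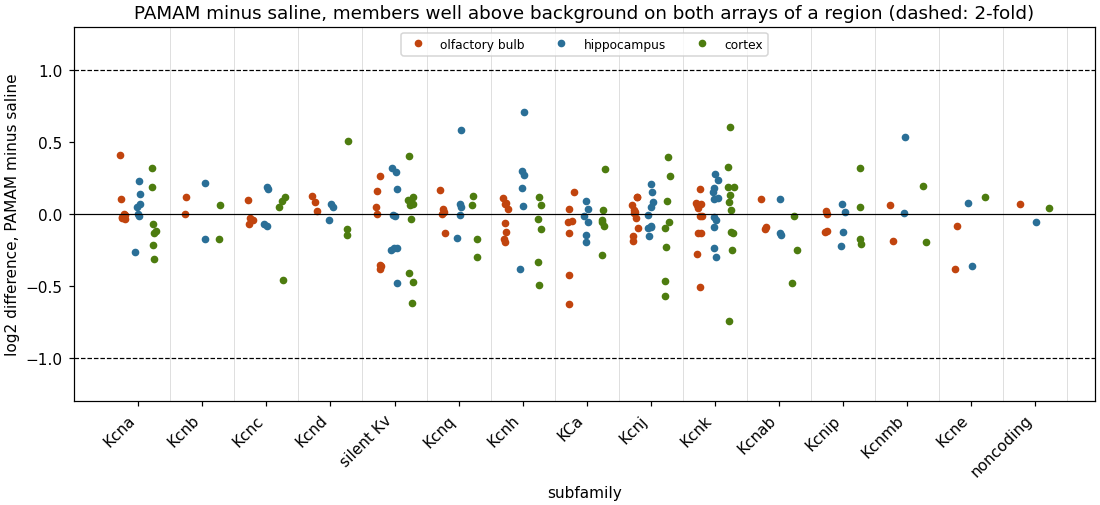
PAMAM minus saline (log2) for each member well above background on both arrays of a region, by subfamily (x axis) and region (colour); each point is a difference between 2 arrays, and dashed lines mark 2-fold. All points lie between the dashed lines, from -0.74 (Kcnk15, cortex) to 0.71 (Kcnh5, hippocampus).

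Some members were well above background on only 1 array of a pair, each read from 1 spot per array. Kcnk5, an acid-sensitive tandem-pore channel, measured -1.33 on the hippocampus PAMAM array and was not well above background on the saline array, at least 13.2-fold higher with PAMAM. It was well above background otherwise only on the bulb PAMAM array (-5.13). Kcne1, an accessory subunit of Kcnq1, measured -2.68 on the cortex PAMAM array and was not well above background on any other array, at least 3.42-fold higher. Kcnj2, an inward rectifier of strong rectification, was well above background on the 3 saline arrays (-4.01, -4.39 and -3.91 in bulb, hippocampus and cortex) and on 0 of 3 PAMAM arrays, at least 2.91-fold, 1.13-fold and 1.36-fold lower. The lowest signal well above background was lowest on the bulb PAMAM array, which raises the first of these bounds.

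Over the 3 regions together, the treatment term of the same limma fit called 0 of 79 members and 0.0% of all genes at an adjusted p under 0.05. At an unadjusted p under 0.05 there were 4 members and 6.3% of genes. These were Kcng4 at -0.40 (SE 0.10, lower in 3 of 3 regions), Kcna5 at 0.22 (higher in 3 of 3), Kcnip1 at -0.17 (lower in 3 of 3) and Kcnh8, which was well above background on both arrays of the bulb only and is given no size, with adjusted p-values of 0.773 to 0.783. The Kcnip1 differences were -0.12, -0.22 and -0.18 in bulb, hippocampus and cortex. Another Kcna5 probe, well above background on all 6 arrays, gave -0.11, -0.01 and 0.11 in the same order. The members were picked by p from these same differences, so a shared sign over regions is no separate evidence. Kcnn3 and Kcnh2 followed, with differences of -0.23 and -0.20 (adjusted p = 0.783 and 0.784), as did Kcnq1 and Kcns1, which were not well above background on all 6 arrays.

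Markers of other tissues and cells differed between the treatments beside these values. With PAMAM, choroid plexus markers were higher in the hippocampus in 12 of 12 (median 0.77) and in the cortex in 8 of 9 (median 1.22, summed level 4.67-fold), and meningeal markers were higher in the cortex in 10 of 10 (median 0.82). Red blood cell markers were higher in the hippocampus in 5 of 5 (median 0.55) and in the cortex in 4 of 4 (median 0.59), and microglia markers in the cortex in 8 of 8 (median 0.17). Thalamic markers were higher in the hippocampus in 7 of 8 (median 0.62) and lower in the cortex in 8 of 9 (median -0.41). In the bulb the choroid plexus and meningeal medians were -0.06 and -0.02. Their part in the members' PAMAM differences was not tested.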

How the data were processed

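Gene expression in 3 brain regions under 2 treatments was read on 6 Agilent arrays of 1 colour (Cy3, RNA cleaned with RNeasy kits, per the labels' protocols). Each group is 1 array, as the labels give it. The scanner files as deposited give the intensity of every spot (Feature Extraction 10.7.3.1, scanner G2505C, design 028005, probe positions on mm9, per the file headers). The authors' deposited table holds log2 values of the same arrays. Set against the scanner values it equals log2 levels scaled to the 75th percentile minus each probe's median (column medians -0.09, -0.06, -0.05, 0.03, 0.04 and 0.03 in the order bulb, hippocampus, cortex, saline before PAMAM). How it treats repeated spots is unknown, and it served as an alternative.

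From log2 of Agilent's processed signal, the 75th percentile of non-control spots on that array was subtracted (679, 710, 640, 547, 542 and 452 before log2, same order). Outlier spots were dropped, spots of a probe averaged, and the brightest probe of a gene kept. A probe was well above background when at least 50% of its spots were. Fits used limma 3.58.1 in R 4.3.3, with Benjamini-Hochberg adjustment, and were tested on simulated data. Accessions of 90 of 92 members matched RefSeq (GRCm38.p6, used for names and promoters), with 0 symbols changed. The annotation of mm9 was not used here.

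Genes named are the brightest member of each subfamily, the 10 largest called differences per contrast and direction, those called against both other regions, the 8 largest PAMAM differences per region, the 8 smallest p-values over regions, bounds of at least 2-fold, and members listed for their textbook roles. Others named are the rest of a count or were chosen after their values were seen. Members and gene lists were chosen with earlier results of these data known. Alternatives were normexp background (offset 50), quantile normalisation, filters on dim probes, the median over probes, the authors' table, slide row, single treatments and leaving out each array. Some members are counted but not reported here by name.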

Additional observations from a re-analysis of the deposited data

Results flagged for a closer look

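The following 2 members moved in opposite directions with PAMAM in different regions, each difference being that of 1 array against 1 array; the differences between regions were not tested. Kcnh5 was higher with PAMAM in the hippocampus (0.71, log2) and lower in the cortex (-0.33). Kcnk9 was lower with PAMAM in the bulb (-0.51) and higher in the cortex (0.60), with log2 levels from -4.27 to -3.41.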

How the results depend on the processing

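No paired analysis was possible because the labels give no replicate numbers to block on; the treatment term itself compares treatments within regions. The counts of called members between bulb and hippocampus (28) and bulb and cortex (29) lay at 22 to 29 and 21 to 28 with normexp background, quantile normalisation, either filter on dim probes and the median of all probes, and at 28 and 29 with the authors' table. Leaving out 1 array gave 21 to 29 and 24 to 28. An adjusted p without the 2-fold limit gave 52 and 55, and 15 between hippocampus and cortex. Slide row in the fit gave 0 and 0 in the contrasts with the cortex (38 and 30 at an unadjusted p under 0.05, limma). The latter count (5) also became 0 without a filter on dim probes and 0 to 0 with any 1 array left out, 3 with all probes' median, then 12 and 9 at 2-fold in the saline or PAMAM arrays alone. Within regions, members at least 2-fold different with PAMAM (0) became 2, 4 and 4 without a filter in bulb, hippocampus and cortex, 1, 1 and 3 at 1.5-fold, 1, 3 and 1 when measured on at least 1 array, and 1 in the hippocampus with the median of all probes. Over regions, PAMAM calls stayed at 0 to 0 when leaving out an array. Among the single calls under these settings, 801 values kept direction and call, 149 kept direction only, 32 untested values moved and 0 reversed. Of the 28 and 29 bulb calls, 18 and 20 held in all 6 fits that left out an array. Dim probes limit what could be read: 13 members were not tested.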
